A study of Mus musculus with 10 samples.

Results

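The genes described here are 10 of the 21755 protein-coding mouse genes examined: those for heparan sulfate polymerases (Ext1, Ext2), modifying enzymes (Ndst1, Glce, Hs2st1, Hs6st1, Hs3st1) and heparan sulfate-bearing core proteins (Sdc4, Gpc3, Gpc4). A gene counted as marked where an H3K4me3 peak shared at least 1 bp with its promoter, taken as the 1000 bp before and the first 100 bp after any of its annotated transcription start sites (TSSs). The genes were chosen by the presence, width and rank of these same peaks, so those values are given as a description and were not tested.

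The assay was CUT&Tag for H3K4me3, in which a transposase tethered to the antibody cuts and tags nearby DNA. H3K4me3 is a trimethylated lysine of histone H3 that sits around the start sites of genes. The study classed promoters with H3K4me3 alone as poised, and as active where the H3K27ac mark was also present. A marked gene is therefore not necessarily in use. The cells were naive extra-embryonic endoderm (nEnd), a culture model of primitive endoderm (PrE), derived from a single mouse embryonic stem cell line with an OCT4-mCherry reporter and given no treatment. They had been differentiated with LIF, CHIR99021 and Activin A, sorted for PDGFRA and expanded on mouse embryonic fibroblasts, and were then sorted on OCT4-mCherry and surface PDGFRA into Oct4+ (4 libraries), double-positive (DP, 3 libraries) and Pdgfra+ (3 libraries) cells, with 2500000 cells per replicate. All 3 populations share the reporter line and the culture, and differ by the gates, so each is a sorted fraction of 1 line.

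Heparan sulfate is a long sulfated sugar chain carried by core proteins at the cell surface and in the matrix. The chain is polymerised by a complex of EXT1 and EXT2 in the Golgi, after which N-deacetylase/N-sulfotransferases, an epimerase and O-sulfotransferases modify it in stretches, and the pattern of sulfation sets which proteins it binds. It is needed as a co-receptor for fibroblast growth factors, among them FGF4, which directs the choice between epiblast (Epi) and PrE in the blastocyst.

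Promoter sequences are given as fixed windows, which do not follow the extent of the peaks. RefSeq held a 300-base promoter, from 250 bases before to 50 bases after the start, for 8 of the 10 genes (GRCm38.p6), and 4 are shown, with every CpG in capitals: Hs3st1 and Gpc3 because neither carried a peak in Oct4+ cells, Hs6st1 because it was marked in every library, and Gpc4 as the glypican that lies near Gpc3 on the X chromosome and was marked in all 3 populations. They lie at chr5:39644582-39644881 on the minus strand (Hs3st1), chrX:52613925-52614224 on the minus strand (Gpc3), chr1:36068150-36068449 on the plus strand (Hs6st1) and chrX:52164874-52165173 on the minus strand (Gpc4). The Hs3st1 and Gpc4 windows lie downstream of the TSSs from which their peaks are measured, at 39645246 and 52165252.
Hs3st1: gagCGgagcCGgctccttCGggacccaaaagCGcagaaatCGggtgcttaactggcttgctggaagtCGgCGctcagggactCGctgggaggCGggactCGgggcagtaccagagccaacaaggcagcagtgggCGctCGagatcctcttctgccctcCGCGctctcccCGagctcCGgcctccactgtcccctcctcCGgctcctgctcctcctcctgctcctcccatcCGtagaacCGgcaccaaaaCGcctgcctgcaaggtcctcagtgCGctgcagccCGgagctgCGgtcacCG
Gpc3: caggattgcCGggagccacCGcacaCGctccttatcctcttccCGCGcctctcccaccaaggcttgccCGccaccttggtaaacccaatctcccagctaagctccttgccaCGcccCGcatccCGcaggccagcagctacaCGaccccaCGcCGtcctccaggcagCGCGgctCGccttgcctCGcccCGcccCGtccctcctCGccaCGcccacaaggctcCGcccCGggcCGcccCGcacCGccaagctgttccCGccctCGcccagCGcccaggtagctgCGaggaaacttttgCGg
Hs6st1: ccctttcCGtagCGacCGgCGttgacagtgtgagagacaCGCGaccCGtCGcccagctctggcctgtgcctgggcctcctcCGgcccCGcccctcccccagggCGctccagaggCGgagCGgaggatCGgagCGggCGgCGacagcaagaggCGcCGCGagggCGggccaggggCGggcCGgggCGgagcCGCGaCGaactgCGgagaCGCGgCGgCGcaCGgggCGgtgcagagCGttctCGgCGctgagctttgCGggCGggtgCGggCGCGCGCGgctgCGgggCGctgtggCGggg
Gpc4: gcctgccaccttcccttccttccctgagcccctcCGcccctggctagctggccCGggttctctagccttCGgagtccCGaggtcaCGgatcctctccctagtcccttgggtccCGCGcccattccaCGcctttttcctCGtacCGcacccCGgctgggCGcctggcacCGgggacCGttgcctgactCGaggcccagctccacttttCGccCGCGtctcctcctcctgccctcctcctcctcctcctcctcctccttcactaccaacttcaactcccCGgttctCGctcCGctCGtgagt

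All 4 were rich in CpG, with 24 CpGs in the Hs3st1 promoter, 30 in Gpc3, 47 in Hs6st1 and 22 in Gpc4. The 8 promoters had a median of 27 CpGs, a GC content of 67.7% and an observed-to-expected CpG ratio of 0.834, where the 21263 RefSeq promoters of protein-coding genes had medians of 13, 56.3% and 0.567. The promoter of Ext2 held the fewest CpGs, 18, and that of Hs6st1 the most. Peaks covered the whole 300 bases of Hs3st1 and of Gpc3 in 3 of 3 DP and 3 of 3 Pdgfra+ libraries, and those of Hs6st1 in all 10 libraries. The GATA motif AGATAA, searched on both strands, was in none of the 8 promoters and in 9.65% of all promoters. The octamer ATGCAAAT was likewise in none, and in 1.66% of all promoters. The GC box CCGCCC was in 6 of the 8, all but Ext2 and Hs3st1, and in 46.2% of all promoters, and the E-box CACGTG was in Ext2 alone of the 8 and in 7.84% of all. These are matches of letters in a fixed window and not binding sites.

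Peak signal was not scaled between libraries and the sequencing depth is unknown, so each peak was ranked within its own library and given a percentile, where 100 is the top peak. Libraries held from 3477 to 10545 peaks. Oct4+ replicates 3 and 4 held the fewest (3477 and 4887, against 9144 and 8098 in replicates 1 and 2), and the highest coverage of their median peak was 22 and 38, against 59 and 52 in replicates 1 and 2 and 67 to 144 in the other 6 libraries. The deposited Oct4+ consensus list equalled the joined peaks of replicates 1, 2 and 4. The labels were checked on lineage genes. Of 10 Epi markers, all 10 were marked in every Oct4+ library, 6 to 8 in DP and 1 to 4 in Pdgfra+. Klf4 went the other way by rank, at 95.0 to 97.9 in Oct4+, 99.4 to 99.7 in DP and 98.7 to 99.6 in Pdgfra+. Of 10 PrE markers, 0 to 6 were marked in Oct4+, and 9 or 10 in each DP and Pdgfra+ library. Hnf4a had a peak in DP replicate 2 and Pdgfra+ replicate 1 alone. Of 8 trophectoderm (TE) markers, 2 to 4 were marked in any library. Nanog was at the 96.8 to 99.3 percentile in Oct4+, at 11.5 to 19.6 in DP and without a peak in Pdgfra+, whereas the Pdgfra promoter was at 99.8 or above in DP and Pdgfra+ and had a peak in 1 of 4 Oct4+ libraries. Of 10 fibroblast markers, looked at because of the feeder cells, 0 to 3 were marked in a library, at a percentile of at most 14.1.

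Heparan sulfate genes carried H3K4me3 at more promoters in DP and Pdgfra+ than in Oct4+ libraries. All 10 were marked in each DP library, 10, 9 and 10 in Pdgfra+ replicates 1 to 3, and 8, 7, 4 and 6 in Oct4+ replicates 1 to 4. The means were 10 in DP (n = 3), 9.67 ± 0.577 (SD, n = 3) in Pdgfra+ and 6.25 ± 1.71 (SD, n = 4) in Oct4+. In pools of sorted cells, fewer marked cells and less mark per cell cannot be told apart. The Oct4+ counts fall in the order of peak numbers, and over all protein-coding genes 4021 to 9538 were marked in an Oct4+ library, against 7356 to 11138 in the DP and Pdgfra+ libraries. Among equal numbers of peaks, the 3477 of highest total signal in each library, 4 of the 10 genes were marked in each Oct4+ library and 6 in each DP and Pdgfra+ library, where 18.5% to 19.7% of all protein-coding genes were marked in an Oct4+, 19.9% to 20.4% in a DP and 19.3% to 20.4% in a Pdgfra+ library. Hs2st1, Hs6st1, Ext1 and Sdc4 were among these peaks in all 10 libraries, and Hs3st1 and Glce were added in DP and Pdgfra+. In the consensus lists, 7 of the 10 genes had a peak in Oct4+, and all 10 did in DP and in Pdgfra+, where 39.8%, 42.4% and 40.8% of all genes had one. Hs3st1, Gpc3 and Ext2 were the 3 without one in Oct4+. Over the 10 genes and 10 libraries there were 84 promoter peaks, 1 for each gene and library that had any, and the peak was absent in 16 cases.

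**Figure D1:**
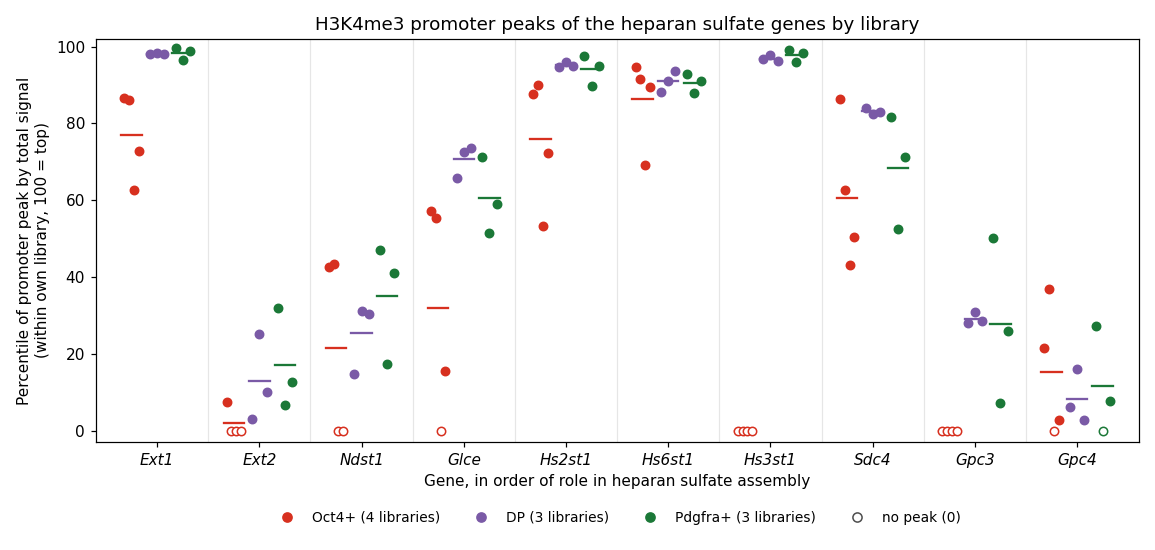
Percentile by total signal of each gene's promoter peak within its own library (vertical axis, 0 to 100), for 10 heparan sulfate genes in the order of their role (horizontal axis). Points are single libraries, short bars are means over 4 Oct4+, 3 DP or 3 Pdgfra+ libraries, and open points at 0 mark libraries with no peak; Hs3st1 is open in all 4 Oct4+ libraries and above 96 in the other 6.

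Ext1, which encodes the catalytic polymerase subunit, was marked in every library by a broad peak around its TSS at 53346159 on chromosome 15. By total signal it was at percentile 86.7, 86.0, 62.6 and 72.8 in Oct4+ replicates 1 to 4. It was at 98.0, 98.2 and 98.1 in DP and at 99.5, 96.6 and 98.8 in Pdgfra+ replicates 1 to 3. Every DP and Pdgfra+ library was therefore above every Oct4+ library, with means of 98.1 ± 0.122 (SD, n = 3) in DP, 98.3 ± 1.53 (n = 3) in Pdgfra+ and 77.0 ± 11.6 (n = 4) in Oct4+. The separation was also present among equal numbers of peaks, where Ext1 was at 61.8 to 67.4 in Oct4+, 95.2 to 95.9 in DP and 93.6 to 98.5 in Pdgfra+. The mean difference was -21.1 percentiles for Oct4+ minus DP and -21.2 for Oct4+ minus Pdgfra+ with all 4 Oct4+ libraries, and -11.7 and -11.9 with replicates 1 and 2 alone.

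The Ext1 peak was broad rather than tall. Its width was 6752, 7112, 5406 and 5179 bp in Oct4+, 7137, 8334 and 6453 bp in DP, and 9687, 5948 and 7479 bp in Pdgfra+ libraries, so the widths of the 3 populations overlapped. By the highest coverage within the peak, Ext1 ranked lower than by total signal in all 10 libraries, at 49.2, 48.0, 8.04 and 31.9 in Oct4+, 62.2, 66.6 and 59.7 in DP, and 85.6, 35.1 and 64.1 in Pdgfra+. By this rank DP was above Oct4+ in every library, and Pdgfra+ overlapped Oct4+ through its replicate 2. Ext1 also had a second peak, 32931 bp downstream of the most upstream TSS, at chr15:53308794-53313228 in Oct4+ replicate 1 and chr15:53308823-53313226 in replicate 2. It overlapped no annotated exon of the gene and no TSS of any gene, so it was intronic, and it ranked at the 32.6 and 13.5 percentile. No other library had a peak there, and of the 3 consensus lists the Oct4+ list held it.

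Ext2, the partner subunit of the polymerase, was among the weakest promoters of the set. By total signal it was at 7.52 in Oct4+ replicate 1 and had no peak in Oct4+ replicates 2, 3 and 4. It was at 3.06, 25.3 and 9.98 in DP and 31.8, 6.57 and 12.6 in Pdgfra+. DP and Pdgfra+ overlapped one another, and the 1 marked Oct4+ library lay within both ranges. In contrast to Ext1, the Ext2 peak was narrow, 2988 bp in Oct4+ replicate 1, 3181, 2924 and 2743 bp in DP and 2729, 1396 and 2348 bp in Pdgfra+. Each DP peak was thus wider than each Pdgfra+ peak, the nearest at 2743 and 2729 bp. The median peak width was 3581 to 4222.5 bp in DP libraries and 2204.5 to 3786 bp in Pdgfra+ libraries. By percentile of width within the library Ext2 overlapped, at 12.2 to 22.2 in DP and 5.76 to 18.9 in Pdgfra+. The rank of Ext2 by highest coverage exceeded its rank by total signal in all 7 libraries that had it, at 36.5 in Oct4+, 24.4, 49.3 and 29.7 in DP, and 47.2, 54.2 and 27.4 in Pdgfra+. Ext2 has 10 annotated TSSs, of which the 6 within 23 bp of the most upstream start, at 93822568 on chromosome 2, carried the peak.

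**Figure D2:**
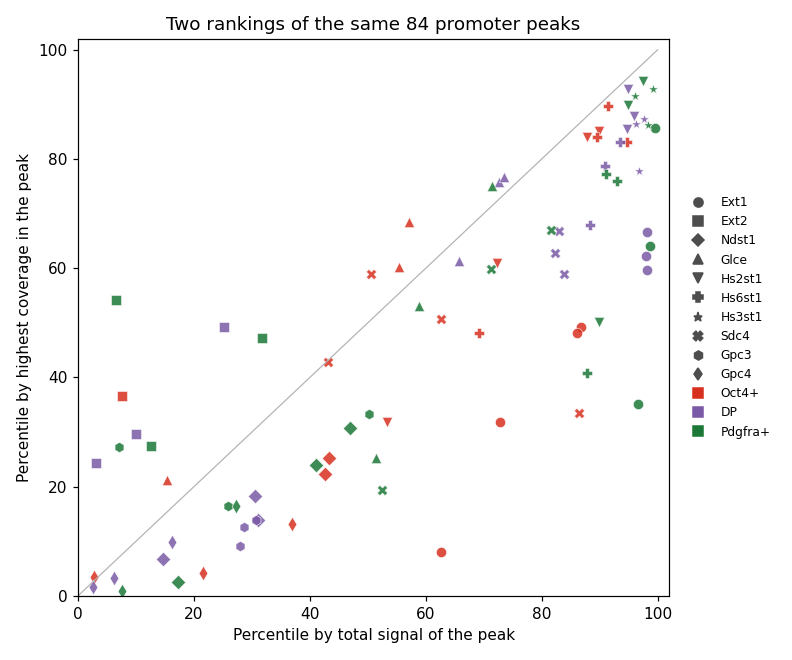
Percentile by highest coverage (vertical axis) against percentile by total signal (horizontal axis) for the 84 promoter peaks of the heparan sulfate genes, each within its own library, with symbols for genes, colours for populations and a line where the 2 are equal. Of the 84 peaks, 68 lie below the line; Ext1 (circles) lies below it in all 10 libraries and Ext2 (squares) above it in all 7 that had the peak.

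Ndst1, which removes acetyl groups from the chain and adds N-sulfate, was of middle to low rank in each population. Its peak was at 42.6 and 43.3 in Oct4+ replicates 1 and 2 and absent in replicates 3 and 4. It was at 14.6, 31.1 and 30.5 in DP and 46.9, 17.3 and 41.0 in Pdgfra+. The populations overlapped when all libraries were counted, whereas both marked Oct4+ libraries were above all 3 DP libraries. The mean difference, Oct4+ minus DP, was accordingly -3.91 percentiles with all 4 Oct4+ libraries and 17.6 with replicates 1 and 2 alone. The peak also covered the promoter of Rps14, a ribosomal protein gene, in all 8 libraries that had it, so its signal cannot be assigned to one of the 2 genes.

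Glce, the epimerase that converts glucuronic to iduronic acid, was higher in DP than in Oct4+ libraries. It was at 57.1, 55.4 and 15.4 in Oct4+ replicates 1, 2 and 4, and had no peak in replicate 3. In DP it was at 65.8, 72.6 and 73.6, and in Pdgfra+ at 71.4, 51.4 and 58.9. DP did not overlap Oct4+, and Pdgfra+ overlapped both. The position of highest coverage was 92 bp downstream of the TSS used in 8 of the 9 libraries with a peak, and 409 bp downstream in Oct4+ replicate 4. Among equal numbers of peaks Glce was in no Oct4+ library, at 20.0, 30.4 and 42.4 in DP, and at 13.1, 8.94 and 7.74 in Pdgfra+, so there each DP library was above each Pdgfra+ library. The peak also covered the microRNA gene Mir5133.

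Hs2st1, which adds sulfate to the 2-O position of iduronic acid, was marked in every library. It was at 87.8, 89.9, 53.4 and 72.4 in Oct4+, 94.7, 96.0 and 94.9 in DP, and 97.5, 89.8 and 94.9 in Pdgfra+. DP was above Oct4+ in every library, with means of 95.2 ± 0.699 (SD, n = 3) and 75.9 ± 16.9 (n = 4). Pdgfra+ overlapped Oct4+ only by its replicate 2, which at 89.8 was just under Oct4+ replicate 2 at 89.9. With Oct4+ replicates 1 and 2 alone the mean difference, Oct4+ minus DP, was -6.35 percentiles in place of -19.3. Among equal numbers of peaks, Hs2st1 was at 53.4 to 76.6 in Oct4+, 87.7 to 89.8 in DP and 80.9 to 92.3 in Pdgfra+, and Oct4+ was below both. The Hs2st1 peak was also wider in each DP library (6429, 6557 and 6022 bp) than in each Oct4+ library (5123, 4590, 3256 and 4058 bp). It covered the promoter of the neighbouring gene Selenof in all 10 libraries, so its signal cannot be assigned to Hs2st1 alone.

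Hs6st1, which adds 6-O-sulfate, was marked in every library, at ranks that overlapped between the 3 populations. It was at 94.7, 91.5, 69.3 and 89.5 in Oct4+, 88.3, 90.9 and 93.5 in DP, and 92.9, 87.8 and 91.1 in Pdgfra+. Oct4+ replicate 3 was below the other 9 libraries. The means were 86.2 ± 11.5 (SD, n = 4), 90.9 ± 2.63 (n = 3) and 90.6 ± 2.58 (n = 3), and without Oct4+ replicate 3 the Oct4+ mean was 91.9 ± 2.60 (n = 3). Of its 2 TSSs, the one at 36068400 on chromosome 1 was marked in all 10 libraries and the one 33290 bp downstream in none.

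Hs3st1, which adds the 3-O-sulfate that completes the antithrombin-binding sequence, was near the top of the DP and Pdgfra+ libraries and unmarked in Oct4+. It had no promoter peak in any of the 4 Oct4+ libraries. It was at percentile 96.8, 97.7 and 96.2 in DP replicates 1 to 3, which is rank 265 of 8128, 205 of 8836 and 288 of 7575 peaks. In Pdgfra+ it was at 99.2, 96.0 and 98.4, rank 86 of 10545, 259 of 6510 and 124 of 7800. DP and Pdgfra+ overlapped, with means of 96.9 ± 0.749 (SD, n = 3) and 97.9 ± 1.65 (n = 3). No peak was found anywhere in the gene body in Oct4+ libraries. Absence here means that no peak passed the authors' threshold, and its lowest detectable level in the sparser Oct4+ libraries is not known.

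The Hs3st1 peak was broad and extended into the gene. It spanned 7724, 9482 and 8760 bp in DP and 9793, 5011 and 8151 bp in Pdgfra+, and reached 6944, 7908 and 8410 bp downstream of the TSS at 39645246 on chromosome 5 in the DP libraries. The position of highest coverage was 830 bp downstream of that TSS in 5 of the 6 libraries and 831 bp downstream in Pdgfra+ replicate 2. By highest coverage the peak was at 77.7, 87.3 and 86.4 in DP and at 92.8, 91.6 and 86.2 in Pdgfra+. The gene has 4 annotated TSSs. The 3 at 39644597, 39644634 and 39645246 were within the peak in all 6 libraries, and the most upstream one, at 39755475, 110229 bp away, had no peak in any library.

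**Figure D3:**
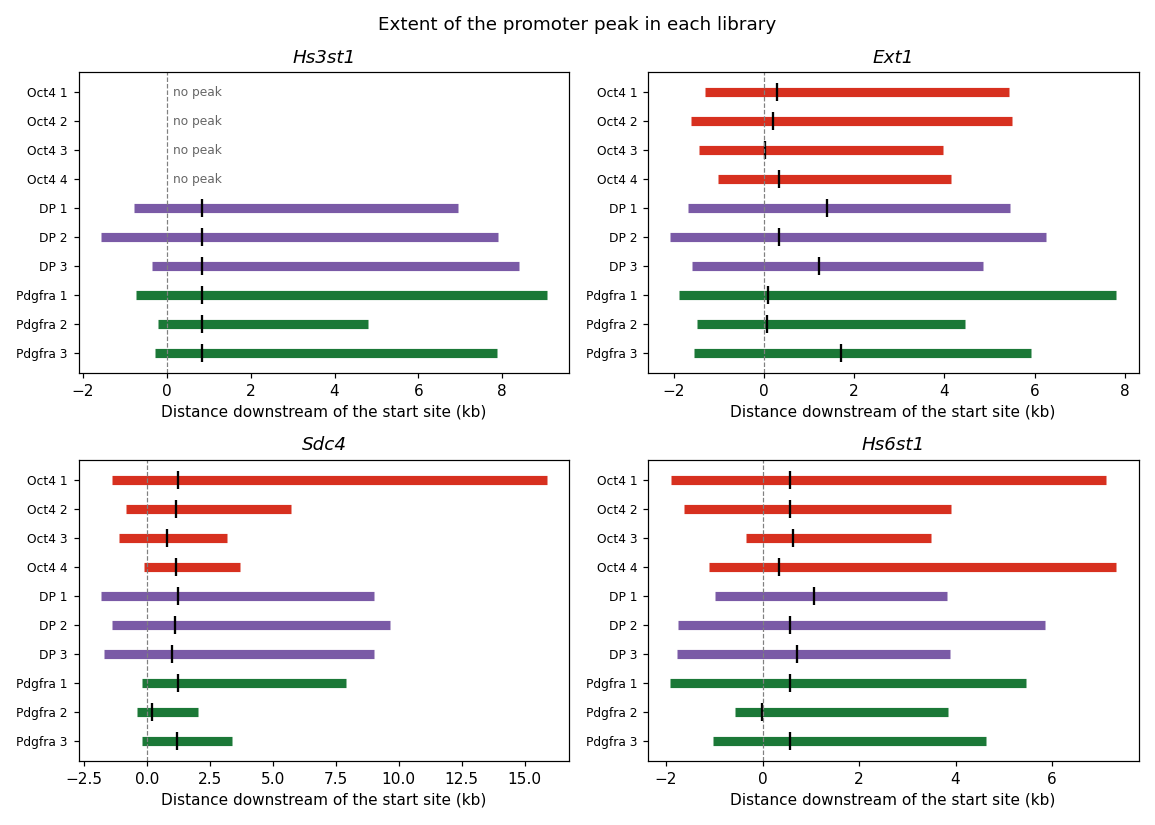
Extent of the promoter peak of Hs3st1, Ext1, Sdc4 and Hs6st1 in each of the 10 libraries, as distance in kb from the most upstream TSS that the peak served (dashed line at 0, positive values into the gene). Bars are peaks coloured by population and black ticks mark the highest coverage; the tick of Hs3st1 lies at 0.83 kb in all 6 libraries, and the Sdc4 bar is longer in DP than in Pdgfra+.

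Among the core proteins, Sdc4, a transmembrane syndecan, was marked in all 10 libraries, higher in DP than in Pdgfra+ by total signal and width but not by highest coverage. By total signal it was at 86.5, 62.7, 43.1 and 50.5 in Oct4+, 83.9, 82.3 and 83.0 in DP, and 81.5, 52.5 and 71.3 in Pdgfra+. All 3 DP libraries were above all 3 Pdgfra+ libraries, and Oct4+ overlapped both. Among equal numbers of peaks the DP libraries were at 62.3, 55.1 and 63.1 and the Pdgfra+ libraries at 44.0, 11.0 and 35.6. By highest coverage it was at 33.4, 50.7, 42.8 and 58.9 in Oct4+, 58.9, 62.8 and 66.7 in DP, and 67.0, 19.5 and 59.8 in Pdgfra+, so that Pdgfra+ replicate 1 was there above every DP library. The peak was 10840, 11023 and 10722 bp wide in DP and 8110, 2433 and 3603 bp in Pdgfra+, without overlap. In Oct4+ it was 17249, 6539, 4312 and 3824 bp, so that the widest and a narrow Sdc4 peak were both from this population. Oct4+ replicate 1 held as 1 peak what Oct4+ replicates 2 and 4 held as a promoter peak and a separate peak inside the gene, at chr2:164429387-164435145 and chr2:164429705-164433582, which overlapped 2 exons.

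Gpc3, a glypican held at the membrane by a lipid anchor, was marked in DP and Pdgfra+ and not in Oct4+. It had no peak in the 4 Oct4+ libraries, was at 28.0, 30.8 and 28.6 in DP, and at 50.3, 7.08 and 25.8 in Pdgfra+. The DP and Pdgfra+ values overlapped, and the Pdgfra+ values were spread more widely, with an SD of 21.7 against 1.45. These ranks were below those of Hs3st1 in each of the 6 libraries. Gpc3 was not among the 3477 highest peaks of any library, so its absence in Oct4+ could not be examined with equal numbers of peaks.

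Gpc4, a second glypican, was weakly marked in all 3 populations. It was at 21.5, 36.9 and 2.68 in Oct4+ replicates 1, 2 and 4 and absent in replicate 3. It was at 6.14, 16.1 and 2.65 in DP, and at 27.2 and 7.59 in Pdgfra+ replicates 1 and 3, with no peak in replicate 2. The populations overlapped. With Oct4+ replicates 1 and 2 alone, both were above every DP library, 20.9 percentiles higher on average, against 6.96 with all 4. By highest coverage the Gpc4 peak ranked at most 16.5 in any library.

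The 10 genes were then set beside all genes. With the percentile set to 0 where there was no peak, 5 of the 10 were higher in every DP library than in any Oct4+ library (Hs3st1, Gpc3, Ext1, Hs2st1 and Glce), and none was lower, where 27.5% of the 9864 genes with a promoter peak in at least 3 libraries were higher in this way and 4.97% were lower. Between Pdgfra+ and Oct4+, 3 of the 10 were higher in every Pdgfra+ library (Hs3st1, Gpc3 and Ext1) and none was lower, against 22.2% and 5.44% of all genes. Between DP and Pdgfra+, Sdc4 was higher in every DP library and none was higher in Pdgfra+, against 3.16% and 5.47% of all genes. A peak in every DP library and in no Oct4+ library was found for 2 of the 10, Hs3st1 and Gpc3, and for 3.99% of 10603 genes, and a peak in every Pdgfra+ library and in no Oct4+ library for the same 2, and for 2.69% of 11614 genes. Of the 4 genes marked in all Oct4+ and DP libraries, Hs2st1 was the one with a wider peak in every DP library, which held for 9.74% of 3882 such genes. Of the 9 genes marked in all DP and Pdgfra+ libraries, Ext2 and Sdc4 were wider in every DP library, as were 15.2% of 7174 genes. None of the 10 had a peak in every Oct4+ library and in no DP or no Pdgfra+ library (0.415% and 0.672% of all genes), or in every library of one of DP and Pdgfra+ and in none of the other (0.214% for DP and 0.00891% for Pdgfra+). None had a wider peak in every Oct4+ than in any DP library (1.34% of all genes) or in every Pdgfra+ than in any DP library (0.0%), and none was separated by width between Oct4+ and Pdgfra+ (9.96% wider in Oct4+ and 0.581% wider in Pdgfra+). The rule that chose the genes used these contrasts, and nothing is read from the counts.

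These counts were recomputed because Oct4+ replicates 3 and 4 held few peaks. Among equal numbers of peaks, Ext1, Hs2st1, Hs3st1 and Glce were higher in every DP library than in any Oct4+ library, against 29.1% of 5231 genes, and the same 4 were higher in every Pdgfra+ library, against 27.0%. Hs3st1 had no Oct4+ peak to begin with, so the smaller lists could not change its place. None of the 10 was there higher in every Oct4+ library than in any DP or any Pdgfra+ library, as 19.5% and 21.9% of genes were. Glce and Sdc4 were there higher in every DP than in any Pdgfra+ library, against 10.3%, and none was higher in Pdgfra+, against 7.91%. With Oct4+ replicates 1 and 2 alone, the 5 genes above Oct4+ in DP (27.8% of 9774 genes) and the 3 in Pdgfra+ (22.4%) were the same as with all 4 libraries, and Gpc4 and Ndst1 were higher in both Oct4+ libraries than in any DP library, against 26.9% of all genes. None was higher in both than in any Pdgfra+ library, against 19.6%.

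**Figure D4:**
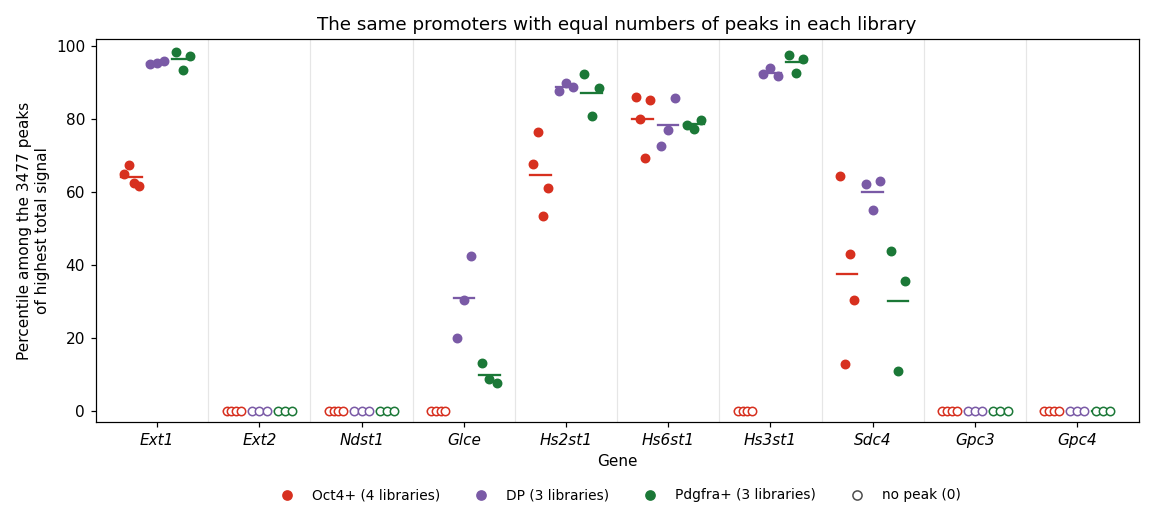
Percentile of each promoter peak among the 3477 peaks of highest total signal of its library (vertical axis, 0 where the promoter is not among them), for the same 10 genes and 10 libraries, with bars for means. Ext1, Hs2st1 and Hs3st1 lie higher in all DP and Pdgfra+ libraries than in any Oct4+ library, Hs6st1 overlaps in all 3, and Ext2, Ndst1, Gpc3 and Gpc4 are at 0 throughout.

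The rest of the pathway was examined with a list of 49 genes for linker synthesis, chain assembly, sulfate supply, trimming and core proteins, of which 39 are not among the 10. The 10 libraries gave a peak at all for 29 of these 39 promoters, and 24 had one in at least 3 libraries and were tested. The 10 without any peak were Ndst3, Ndst4, Hs6st3, Hs3st2, Hs3st6, Sulf1, Hpse, Sdc2, Sdc3 and Gpc5. Percentiles were compared in limma over all 9864 genes, with Benjamini-Hochberg adjustment and a threshold of 0.05. The libraries are biological replicates of 1 line, so the p-values do not extend to other lines. Their spread is not that of the cultures alone, since it also holds differences in peak number and percentiles set to 0. Between Oct4+ and DP, 8 of the 24 passed, 2 higher in Oct4+ and 6 higher in DP, where 1.74% and 7.77% of all genes passed in these directions. These counts, and those for Pdgfra+ below, include calls that rest on percentiles set to 0, described in the next paragraphs. Without DP replicate 1, 2 or 3 the count of 8 became 4, 4 or 5, with Hspg2, Col18a1 and Ndst2 lost each time. Over all genes, the calls higher in DP moved from 766 of 9864 to 1588 of 9585 without Oct4+ replicate 1 and to 489, 406, 378 and 481 without Oct4+ replicate 4 and DP replicates 1, 2 and 3. The 172 calls higher in Oct4+ became 284 without Oct4+ replicate 3, and 111, 110 and 104 without DP replicates 1, 2 and 3. Between Oct4+ and Pdgfra+, 10 passed, 2 higher in Oct4+ and 8 higher in Pdgfra+, against 3.56% and 12.5% of all genes. The 1235 calls higher in Pdgfra+ became 2097 without Oct4+ replicate 1, and 749, 685 and 771 without Oct4+ replicate 4 and Pdgfra+ replicates 1 and 3. In that contrast the 351 calls higher in Oct4+ became 515 without Oct4+ replicate 3 and 225 without Pdgfra+ replicate 3. The median difference over all genes was -10.4 percentiles both for Oct4+ minus DP and for Oct4+ minus Pdgfra+, and over the 24 it was -16.6 and -17.1. Over all genes, the calls among equal numbers of peaks were nearer to even, at 809 higher in Oct4+ and 1122 higher in DP in place of 172 and 766, and at 1157 and 1391 for Oct4+ and Pdgfra+ in place of 351 and 1235. The other heparan sulfate genes were there near even too, with 3 of 13 tested higher in Oct4+ and 4 higher in DP, and 4 higher in Oct4+ and 4 higher in Pdgfra+. Among all genes with a peak in all 10 libraries the direction turned, with 8 higher in Oct4+ and 5 in DP, and 117 in Oct4+ and 46 in Pdgfra+.

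Some calls compare a marked population with one that had no peak in any library. Such a gene entered the test through the libraries where it is high, and its other percentiles were set to 0 and had no spread, so its p-value is not given and its values are a description. This held for 3 of the 8 calls against DP (Col18a1, Gpc6 and Tgfbr3) and 6 of the 10 against Pdgfra+ (the same 3 with Hs3st3a1, Hs6st2 and Notum), and for 211 of 938 and 303 of 1586 calls over all genes. Papss1 and Extl2, called in both contrasts, also entered the test through DP and Pdgfra+. The Notum call against DP used a spread that includes Pdgfra+ percentiles set to 0. The p-values given here are therefore those of Hspg2 and Ndst2.

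Gpc6, a glypican, was high in DP and Pdgfra+ and unmarked in Oct4+. It had no peak in any Oct4+ library, was at 86.8, 88.0 and 86.1 in DP, and at 95.4, 89.2 and 91.4 in Pdgfra+. Hspg2, which encodes the basement membrane proteoglycan perlecan, was marked in every library, at 64.3, 58.5, 25.8 and 24.9 in Oct4+, 94.6, 91.6 and 90.5 in DP, and 92.8, 87.3 and 84.3 in Pdgfra+ (limma adjusted p = 0.014 and 0.0154). Hspg2 lost its call against DP when any 1 DP library was left out, and against Pdgfra+ without Pdgfra+ replicate 1. Tgfbr3, betaglycan, had no peak in Oct4+, and was at 28.9 to 37.0 in DP and 37.6 to 51.7 in Pdgfra+.

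Col18a1 and Notum went the other way. Col18a1, a collagen that carries heparan sulfate, was at 74.1, 73.3, 22.9 and 48.8 in Oct4+ and had no peak in any DP or Pdgfra+ library. Notum, a secreted enzyme that removes a lipid from Wnt proteins and is also known as a releaser of glypicans, was at 93.9, 95.7, 91.3 and 95.3 in Oct4+, at 8.67, 23.2 and 15.6 in DP, and without a peak in Pdgfra+. Its Oct4+ mean exceeded DP by 78.2 percentiles. The fit pools the spread of all 3 populations, and the Pdgfra+ percentiles of Notum are all 0, so its p-value is not given. Its 3 populations did not overlap, and its peak also covered the promoter of Notumos in the 7 libraries that had it.

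Among the enzymes, Extl2, an Ext-like glycosyltransferase, was at 37.6 and 30.3 in Oct4+ replicates 1 and 2, without a peak in replicates 3 and 4, at 73.0 to 82.5 in DP and at 75.7 to 87.1 in Pdgfra+. Its peak also covered the promoter of Slc30a7 in all 8 libraries that had it. Papss1, which makes the sulfate donor, had a peak in 1 Oct4+ library, at 1.41, and was at 24.7 to 42.1 in DP and 26.9 to 52.9 in Pdgfra+. Papss1 and Extl2, with 3 and 2 Oct4+ percentiles set to 0, likewise reached the minimum of 3 libraries through DP and Pdgfra+, so their p-values are not given. Ndst2, a second N-deacetylase/N-sulfotransferase, was at 0 to 45.3 in Oct4+, 57.6 to 65.1 in DP and 47.2 to 72.1 in Pdgfra+ (limma adjusted p = 0.0394 and 0.0379), and its call was lost in 13 of 21 alternative fits in each contrast, among them those that left out any 1 DP library and those without Oct4+ replicate 3 or 4. Hs3st3a1 and Hs6st2, relatives of Hs3st1 and Hs6st1, had no peak in Oct4+. In Pdgfra+ they were at 16.6 to 47.0 and 12.5 to 46.2. In DP they were at 13.4 to 29.0 and 4.61 to 18.0. The Hs3st3a1 peak also covered the promoter of F930015N05Rik. Ranked by width in place of total signal, 6 of the 8 calls against DP were lost, among them Notum. So were Ndst2 and Hspg2, at limma adjusted p = 0.159 and 0.126.

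B4galt7, a linker enzyme, and Slc35b3, a transporter of the sulfate donor, also had a peak in every DP library and in no Oct4+ library, at 15.0 to 31.0 and 0.686 to 24.9 in DP. The Slc35b3 peak also covered the promoter of 5033403F01Rik in all 5 libraries that had it. With Hs6st2, Hs3st3a1, Gpc6 and Tgfbr3, B4galt7 and Slc35b3 were 6 of the 28 with a peak in either population that had this pattern, where 3.99% of 10603 such genes had it. Hs6st2, Hs3st3a1, Gpc6 and Tgfbr3 also had a peak in every Pdgfra+ library and in no Oct4+ library, which is 4 of 29, where 2.69% of 11614 genes did. In the other direction, Col18a1 had a peak in every Oct4+ library and in no DP library, 1 of 28 against 0.415% of all genes, and Col18a1 and Notum had one in every Oct4+ library and in no Pdgfra+ library, 2 of 29 against 0.672%. Notum was also the 1 of 24 with a peak in every DP library and in no Pdgfra+ library, against 0.214% of all genes, and 0 of 24 had the reverse. Between DP and Pdgfra+, limma called none of the 24 and 14 of the 9864 genes (0.132% higher in DP and 0.0101% higher in Pdgfra+). At an unadjusted p under 0.05 there were 3 of the 24, Hs3st3b1 and Notum higher in DP and Hs6st2 higher in Pdgfra+, of which Notum was set against the absence of any Pdgfra+ peak, against 298 of the 9864 genes, 154 higher in DP and 144 higher in Pdgfra+.

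**Figure D5:**
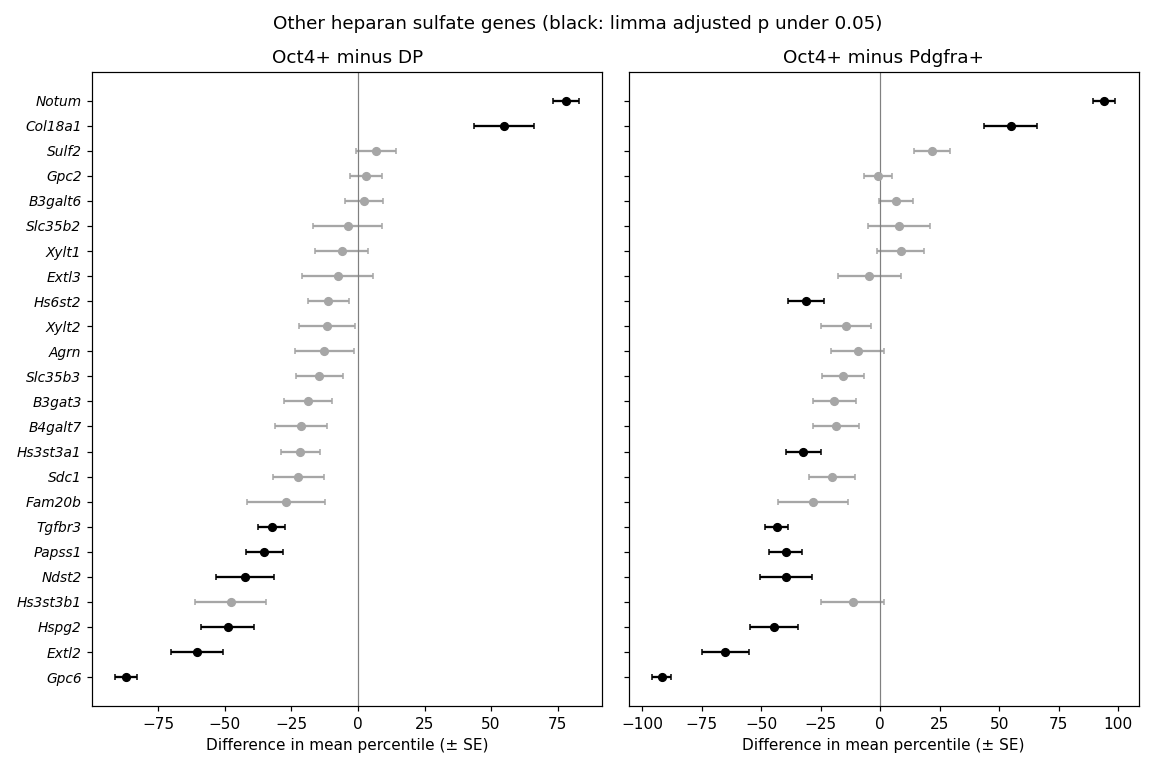
Difference in mean percentile ± SE of the 24 other heparan sulfate genes tested (horizontal axis), Oct4+ minus DP on the left and Oct4+ minus Pdgfra+ on the right, in the order of the left panel. Black points passed limma at an adjusted p under 0.05: 8 on the left and 10 on the right, of which Notum and Col18a1 lie to the right of 0 in both; 3 and 6 of them compare with a population that had no peak, where all percentiles are 0. Papss1 and Extl2, black in both, entered the test through DP and Pdgfra+.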

How the data were processed

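H3K4me3 CUT&Tag was performed on sorted Oct4+ (4), DP (3) and Pdgfra+ (3) nEnd, with 14 PCR cycles and paired-end sequencing. Per the study's methods and the submitters' processing notes, reads were aligned to mm10 with Bowtie2, with SAMtools 1.12 and bedtools 2.26.0, and the authors called peaks per library with SEACR (stringent) against IgG. The deposited peaks give their total signal and highest coverage, unscaled between libraries, so reads per library are unknown and no interval was computed. The deposited DiffBind consensus lists give positions alone. No column of per-sample values was left unused.

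Samples were grouped by the population in their titles. TSSs were those of GENCODE M21 (GRCm38). Each gene was given the percentile of its promoter peak by total signal within the library, or 0 without a peak. All 10 libraries entered limma 3.58.1 (R 4.3.3, unpaired, Benjamini-Hochberg over 9864 genes), which was tested on simulated data. The genes and the pathway list were chosen with earlier results of these data known. Genes named were the 10, other pathway genes that passed limma or had a peak in every library of one population and none of another, lineage markers, and genes that share a peak with a named one, of which Slc30a7, Notumos, F930015N05Rik and 5033403F01Rik were added after their values were seen. Genes also named by count (those without a peak, and those at an unadjusted p under 0.05) were chosen likewise. Alternatives changed the window, overlap, TSS set, peaks, score, filter, block and libraries.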

Additional observations from a re-analysis of the deposited data

Results flagged for a closer look

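In Oct4+ replicate 3 the Hs6st1 peak was at the 48.2 percentile by highest coverage, where the other 3 Oct4+ libraries were at 83.1, 89.7 and 84.1, a library far from the others of its group. Replicate 3 held the fewest peaks of all libraries, 3477. In Oct4+ replicate 1 the Ext2 promoter was at the 7.52 percentile by total signal, where the other 3 Oct4+ libraries had no peak. The 3 absent peaks stand at 0, so any gene with a peak in 1 of 4 libraries stands apart in this way by construction. These are 2 of 19 sets of 4 Oct4+ values examined. Chance gives about 1 in 20 for untied values, a rate that does not apply to Ext2.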

How the results depend on the processing

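Restricting limma to genes with a peak in all 10 libraries left 13 calls for Oct4+ and DP, 163 for Oct4+ and Pdgfra+ and 0 for DP and Pdgfra+, in place of 938, 1586 and 14, and 0 and 1 of the other heparan sulfate genes in place of 8 and 10. More of these calls were higher in Oct4+, 8 against 5 in DP and 117 against 46 in Pdgfra+, the reverse of the main fit. This setting left fewer genes to test, 7 of the other heparan sulfate genes among them. Testing genes with a peak in at least 1 library gave 877, 1459 and 20 calls. Among equal numbers of peaks the calls were 1931 (809 higher in Oct4+, 1122 in DP, against 172 and 766), 2548 (1157 and 1391, against 351 and 1235) and 178 (87 and 91), with 1 other heparan sulfate gene between DP and Pdgfra+. There, a mean of 4 of the 10 genes was marked in Oct4+, 6 in DP and 6 in Pdgfra+. With the upper part of the peaks by highest coverage, the means were 2.5, 6 and 4.67, the calls for Oct4+ and Pdgfra+ 1024, and those of the other heparan sulfate genes 5 and 4. A peak covering 50% of the window gave 9 marked genes in Pdgfra+. Ranking by highest coverage gave 570, 932 and 0 calls, and by width 578 for Oct4+ and DP and 43 for DP and Pdgfra+, with 3 and 1 other heparan sulfate genes. The causes were not tested.

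Leaving out 1 library at a time gave 488 to 1754 calls for Oct4+ and DP, 996 to 2408 for Oct4+ and Pdgfra+ and 4 to 54 for DP and Pdgfra+, and 4 to 11 and 7 to 11 other heparan sulfate genes in the first 2 contrasts. Without Oct4+ replicate 1 the counts were 1754 and 2408, without replicate 4 616 and 1011, without DP replicates 1, 2 and 3 517, 488 and 585 against Oct4+, with 4, 4 and 5 other heparan sulfate genes, and without Pdgfra+ replicate 3 996. For DP and Pdgfra+ they were 4, 6 and 8 without each DP replicate, 54 without Pdgfra+ replicate 1 and 5 without its replicate 3. Without Oct4+ replicates 3 and 4, an alternative chosen after seeing the data, the calls were 1029, 1650 and 11, with 6, 7 and 0 other heparan sulfate genes. The calls higher in Oct4+ were there 391 against DP and 667 against Pdgfra+, in place of 172 and 351. Those higher in DP and Pdgfra+ were 638 and 983, in place of 766 and 1235.

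With the replicate number as a block, the calls were 559, 1014 and 3, with 6, 8 and 0 other heparan sulfate genes. Libraries of the same number share only that number: their deviations from the group means correlated at -0.169 to 0.231 over 9 pairs, those of different numbers at -0.377 to 0.341, and 2 of 9 libraries correlated best with their own number. For the 10 genes, 29 of 250 differences recomputed under alternatives changed sign, and 63 moved by more than 1 SD. Reads per library are unknown, so what the absence of a weak peak shows about the mark cannot be judged.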
